A study of Mus musculus with 12 samples.

Results

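Glycolytic enzymes and genes of the hypoxia-inducible factor (HIF) pathway were described in mouse embryonic fibroblasts with and without the coactivators CBP and p300. The list held 34 genes, chosen by symbol for their known roles, and 32 of them were rows of the deposited table of 12637 genes. Aldoc and Ankrd37 were not analysed here. The 32 genes comprised 1 hexose transporter, 9 genes of the preparatory steps of glycolysis, 6 of its payoff steps, 4 of lactate formation and transport, 3 HIF subunits, 4 genes of HIF degradation and 5 HIF targets. Polyadenylated RNA was sequenced from immortalised fibroblasts in 4 groups of 3 libraries. Wild-type cells (WT) and CBP/p300 knockout cells (KO) were cultured with DMSO as the solvent control or with doxycycline (Dox) at 30 µg/ml, an antibiotic that also blocks mitochondrial ribosomes, with a treatment time of 24 hours given for doxycycline. The knockout cells carried floxed Crebbp and Ep300 alleles and a stably expressed Cre-ERT2 recombinase, and deletion was induced with 4-hydroxytamoxifen. Whether the WT cells carried these alleles or received 4-hydroxytamoxifen was not given in the sources used here. Differences between KO and WT cells therefore cannot be told apart from any difference in cell line or 4-hydroxytamoxifen exposure. All cells were grown in high-glucose medium with serum, and no group was labelled as hypoxic.

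Glycolysis splits glucose into pyruvate, and lactate dehydrogenase and the monocarboxylate transporters dispose of pyruvate as lactate. HIF is a dimer of an oxygen-regulated alpha subunit and the constant partner ARNT. In oxygen, prolyl hydroxylases mark the alpha subunit for the VHL ubiquitin ligase, and in hypoxia the stabilised dimer binds ACGTG or GCGTG cores and recruits CBP and p300 to genes of glycolysis, angiogenesis and mitophagy. CBP and p300 are lysine acetyltransferases encoded by Crebbp and Ep300.

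The targeted genes were examined first. Ep300 lay between 192 and 200 CPM (reads scaled to a common library size by the trimmed mean of M values, TMM) in WT with DMSO and between 120 and 128 CPM in KO with DMSO, a log2 fold change of -0.67 ± 0.03 (SE, edgeR quasi-likelihood adjusted p = 3.9e-14). Crebbp lay between 65.8 and 67.8 CPM in WT and between 58.8 and 60.4 CPM in KO (-0.16 ± 0.03, edgeR adjusted p = 2.4e-05). Both were lower in KO without overlap. Whole-gene counts hold exons outside the floxed parts too, so they do not measure the deletion itself.

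The libraries held 44476039 to 52173143 reads in genes. Nothing in the labels says that replicates came from separate cultures, so the spread behind each p-value may be technical. Of 12 fibroblast markers, 11 were in the table, and their summed level was 13507 to 13581 CPM in WT with DMSO against 3109 to 3242 CPM in KO with DMSO. Each of the 11 was lower in KO with DMSO, from 1.98-fold for Col1a2 to 452-fold for Col3a1. Of 5 macrophage markers, Cd68 and Csf1r were in the table, at 2.80 to 3.01 CPM in sum in WT with DMSO against 24.5 to 25.9 CPM in KO with DMSO. Cd68 alone was higher, at 1.43 to 1.62 CPM in WT and 23.6 to 24.9 CPM in KO, while Csf1r was lower, at 1.37 to 1.41 CPM in WT and 0.858 to 1.14 CPM in KO. The muscle marker Des summed to 6.74 to 7.48 CPM in WT and 1.36 to 1.71 CPM in KO with DMSO, and the endothelial, epithelial and erythroid markers were not analysed here. In such bulk samples fewer cells of a type and less RNA per cell cannot be told apart, and the part of these marker differences in the results was not tested. A set of 256 processed pseudogenes had a mean log2 CPM of 0.74 to 0.79 in the WT libraries with DMSO, 1.45 to 1.53 in WT with Dox, 0.25 in KO with DMSO replicate 1, 0.97 and 1.02 in the other KO libraries with DMSO and 0.96 to 1.01 in KO with Dox. The 3 WT libraries with DMSO and KO with DMSO replicate 1 therefore stood apart as low in these reads. Doxycycline results of the members are also given with a term for that set of 4 libraries. Results of the wider gene list described later are given without it.

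With TMM scaling most glycolytic genes had lower levels in KO cells than in WT cells, and isoenzyme shares differed in several families. Against WT with DMSO, 20 of the 32 members fell and 7 rose, and 5 did not pass the test (edgeR adjusted p under 0.05 over all genes). Among all genes 89.4% passed, 44.3% falling and 45.1% rising, so passing was the rule in this comparison. Likewise 89.8% of all genes did not overlap between these groups. The members' median log2 fold change was -0.21, beside 0.02 over all genes. At least 2-fold differences were called for 7 members that fell (Hk2, Tpi1, Eno1, Pkm, Slc16a3, Epas1 and Ndrg1) and 2 that rose (Pfkp and Eno2), with 27.5% of all genes called at that size in either direction. Without TMM 3 of the 7 stayed at least 2-fold lower, Eno1, Epas1 and Ndrg1, while Hk2 (-0.86), Tpi1 (-0.95), Pkm (-0.98) and Slc16a3 (-0.99) came just under that size. Without TMM the median over all genes moved by 0.15 on the log2 scale and the split became 16 lower and 12 higher, so the direction of small differences rests on the scaling.

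**Figure D1:**
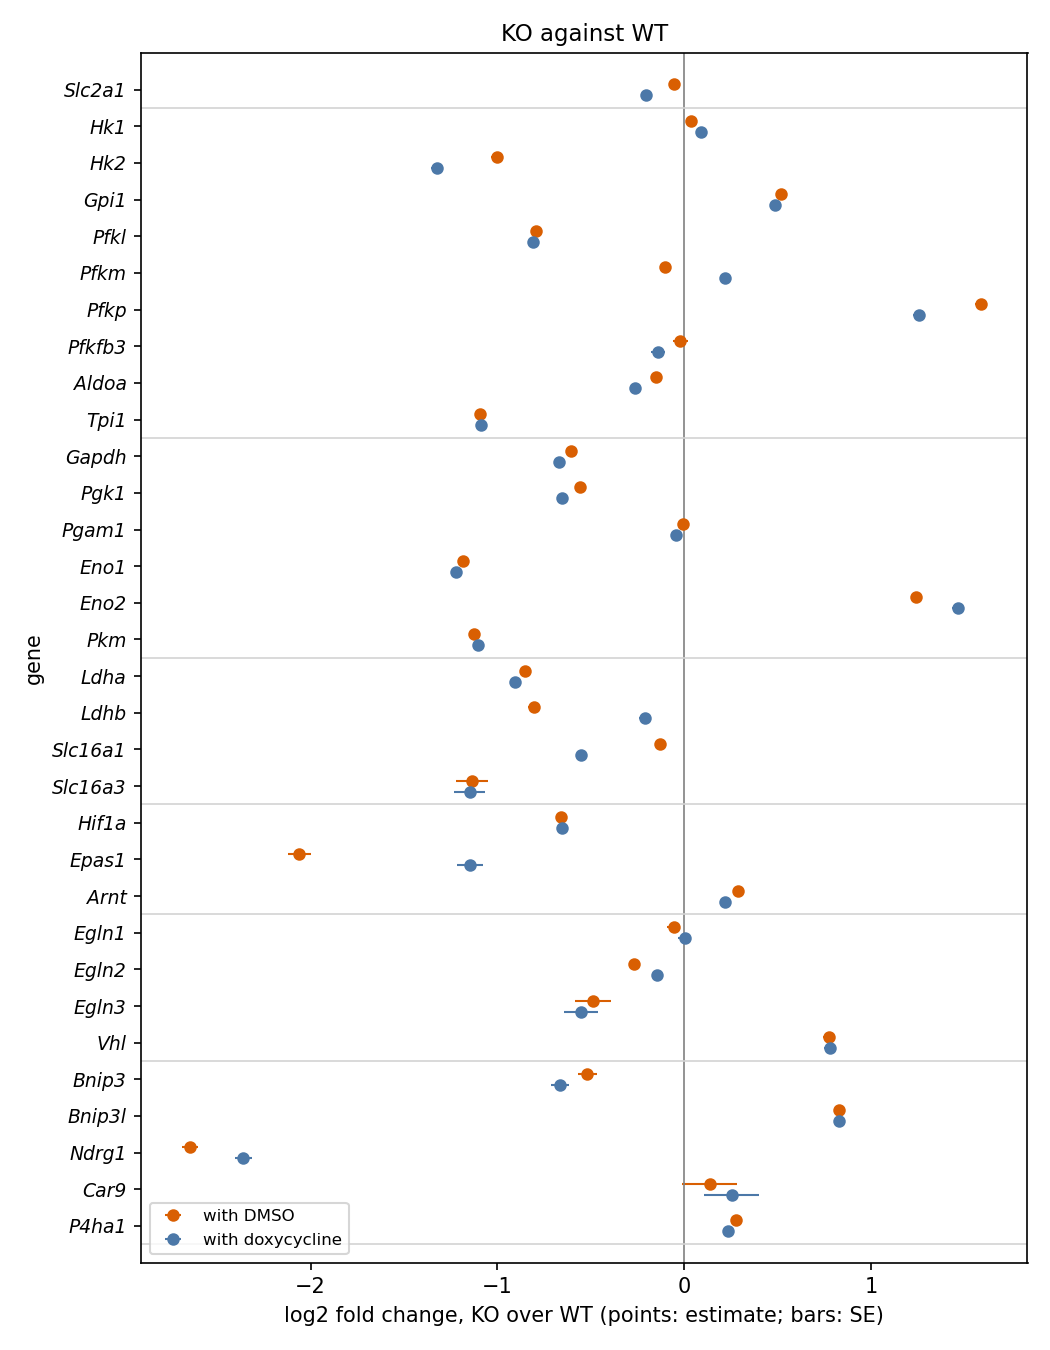
Log2 fold change of KO over WT (x axis) for each of the 32 genes (y axis, in order of role, with grey lines between roles), with DMSO in orange and with doxycycline in blue; bars are the SE. Ndrg1 stood lowest, at -2.65 with DMSO, and Pfkp highest, at 1.59.

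Glucose enters fibroblasts through GLUT1, encoded by Slc2a1, and hexokinases trap it by phosphorylation. Slc2a1 had 127, 125 and 121 CPM in WT and 119, 120 and 119 CPM in KO with DMSO. The groups lay close together without overlap, the log2 fold change was -0.06 ± 0.02 (edgeR adjusted p = 0.029), and without TMM its value was 0.092. Slc2a1 did not pass with the term for the 4 libraries low in pseudogene reads (edgeR adjusted p = 0.079). Nor did it pass among protein-coding genes only (edgeR adjusted p = 0.060). With the term for the 4 libraries 26 of the 27 member calls of KO against WT with DMSO held, beside 85.6% of all genes called with it. Hk2, the inducible hexokinase and a HIF target (chromosome 6, 82725025 to 82774454, minus strand, GRCm38), had 106, 106 and 108 CPM in WT and 52.1, 53.1 and 54.1 CPM in KO. Each KO library was thus far below each WT library, with a mean 2.01-fold lower (SE 0.03 on the log2 scale, edgeR adjusted p = 1e-19). Hk1, the constitutive hexokinase, lay between 120 and 125 CPM in WT and 124 and 126 CPM in KO, and did not pass (0.04, edgeR adjusted p = 0.16).

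Among the 9 preparatory genes, 5 fell, 2 rose and 2 did not pass with DMSO. Gpi1, which turns glucose 6-phosphate into fructose 6-phosphate, had 272, 274 and 271 CPM in WT and 388, 389 and 392 CPM in KO. It was higher in every KO library, by 0.52 ± 0.02 on the log2 scale (edgeR adjusted p = 2.2e-16). The 3 phosphofructokinase genes, which encode the committed step, each went their own way. Pfkl, the liver type, had 167, 163 and 161 CPM in WT against 94.9, 93.6 and 95.2 CPM in KO, and fell by 0.79 on the log2 scale. Pfkp, the platelet type, had 20.9, 21.4 and 20.7 CPM in WT against 60.9, 64.8 and 63.7 CPM in KO, a log2 fold change of 1.59 ± 0.03 (edgeR adjusted p = 1.7e-23). Its KO mean was 3.01-fold the WT mean, and each KO library lay above each WT library. Exons of Pfkp share 5.58% of their length with Pitrm1 on the opposite strand, and whether counting used strand was not given. Pfkm, the muscle type, had 140, 139 and 138 CPM in WT and 130, 131 and 128 CPM in KO with DMSO, a difference of -0.10 (edgeR adjusted p = 3.2e-04) that became 0.047 without TMM. Pfkfb3, whose product makes the activator of phosphofructokinase, did not pass, at -0.02.

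The last preparatory steps split the hexose into trioses. Tpi1, triose phosphate isomerase, had 716, 719 and 724 CPM in WT and 336, 336 and 338 CPM in KO. It was 2.14-fold lower in KO, far outside the spread of either group (log2 fold change -1.09 ± 0.02, edgeR adjusted p = 4.7e-24). Aldoa, the aldolase that precedes it in the pathway, had 607, 609 and 594 CPM in WT and 533, 553 and 543 CPM in KO, a log2 difference of -0.15 that no longer passed without TMM. Neighbouring steps of the pathway were thus lower by unequal amounts.

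Of the 6 payoff genes, which carry the steps from glyceraldehyde 3-phosphate to pyruvate, 4 fell, Eno2 rose and Pgam1 did not pass. Gapdh had 2126, 2136 and 2064 CPM in WT and 1378, 1405 and 1377 CPM in KO (-0.60 ± 0.02 on the log2 scale). Gapdh is often used as a reference gene in expression assays, and here it was 1.52-fold lower in KO. Pgk1, the first ATP-forming enzyme, had 468, 470 and 453 CPM in WT and 306, 323 and 317 CPM in KO (-0.56). Pgam1, phosphoglycerate mutase, lay between 213 and 216 CPM in WT and 211 and 216 CPM in KO, so its groups overlapped. Eno1, the ubiquitous enolase, had 915, 934 and 911 CPM in WT and 411, 401 and 402 CPM in KO. It was 2.27-fold lower in KO (log2 fold change -1.19 ± 0.02, edgeR adjusted p = 4.5e-24). Eno2, the enolase best known from neurons (chromosome 6, 124760053 to 124769673, minus strand), had 45.0, 43.1 and 46.7 CPM in WT and 108, 104 and 106 CPM in KO. The direction was opposite to Eno1, with a log2 fold change of 1.24 ± 0.03 (edgeR adjusted p = 5.6e-22). Pkm, pyruvate kinase (chromosome 9, 59656368 to 59679375, plus strand), had 2200, 2197 and 2163 CPM in WT and 986, 1010 and 1006 CPM in KO. It was the second most abundant member after Gapdh per kilobase in WT with DMSO, at 437 against 510 CPM per kilobase, and fell by 1.13 on the log2 scale (SE 0.02, edgeR adjusted p = 1.6e-24).

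Several of these genes have near-identical copies, so reads could be lost or split. The share of exonic 50-base words found in other genes was 53.9% for Pgk1, 47.2% for Bnip3, 36.2% for Pgam1, 26.0% for Eno1, 25.8% for Pkm and 25.1% for Gapdh, and for Hk2 it was 0%. Copies listed in the table held at most 4.23% of the CPM of Pkm and 1.72% of that of Pgam1. Levels of Pgk1 and Bnip3 in particular are therefore uncertain, and whether the copies take part in the differences was not tested.

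**Figure D2:**
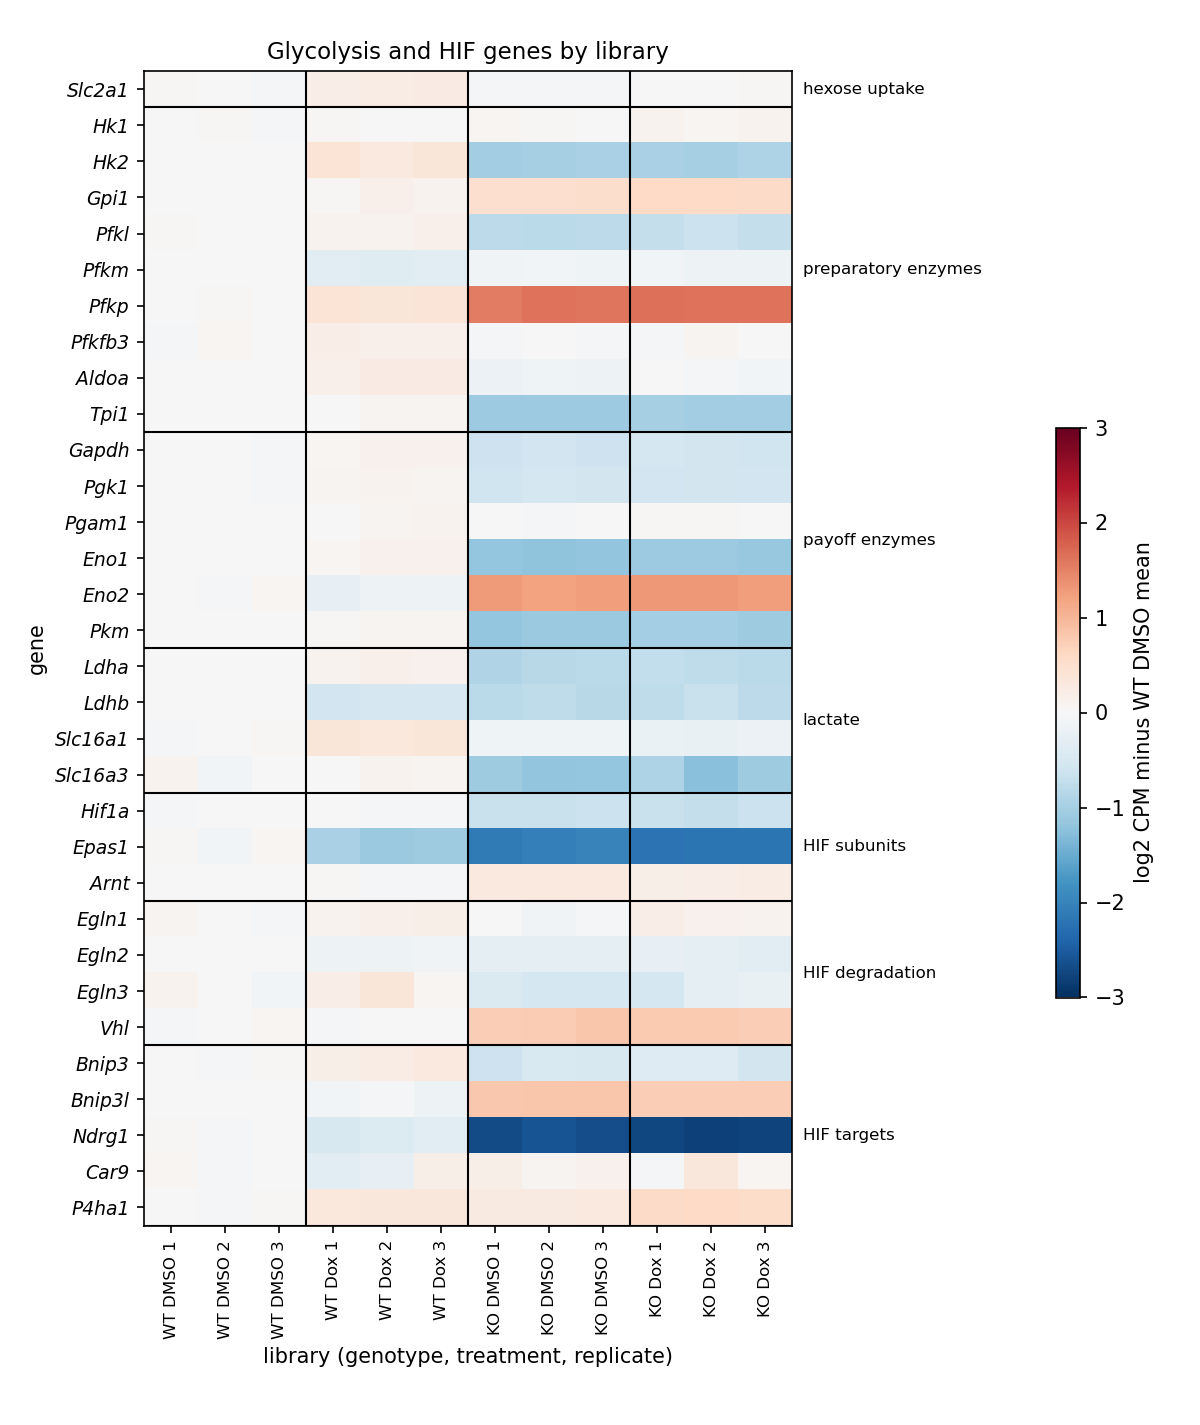
Heat map of log2 CPM of each member (rows) in each library (columns), relative to the mean of the WT libraries with DMSO, with colour from -3 to 3 on the log2 scale. KO columns show low Ndrg1, Epas1, Eno1, Pkm and Tpi1 and high Pfkp and Eno2, and the 3 libraries of a group look alike.

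The 4 lactate genes all fell in KO with DMSO by this test, where 44.3% of all genes fell, and Slc16a1 no longer passed without TMM. Ldha, the lactate dehydrogenase subunit that favours lactate formation, had 650, 651 and 643 CPM in WT and 345, 362 and 371 CPM in KO, and fell by 0.85 on the log2 scale (SE 0.02, edgeR adjusted p = 1.9e-20). Ldhb, its heart-type partner, had 72.6, 72.7 and 72.5 CPM in WT and 41.5, 42.6 and 40.9 CPM in KO, a log2 difference of -0.80. The pair thus moved together with DMSO. Slc16a3, which encodes the lactate exporter MCT4, had 7.01, 6.15 and 6.53 CPM in WT and 3.11, 2.90 and 2.93 CPM in KO (-1.14 ± 0.09, edgeR adjusted p = 7.1e-12). Slc16a1, which encodes MCT1, had 103, 108 and 110 CPM in WT and 98.1, 97.7 and 97.5 CPM in KO, and its log2 difference of -0.13 was 0.018 without TMM.

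Isoenzyme make-up was described as the share of each gene in the CPM per kilobase of exon of its family's members on the list, with no test. Hk2 made 55.6% ± 0.841 (SD, n = 3) of the hexokinase pair in WT with DMSO and 37.8% ± 0.684 in KO with DMSO. The mean share of Pfkp among the phosphofructokinases went from 2.31% to 8.17%, while Pfkl went from 36.2% to 24.6% and Pfkm from 61.4% to 67.3%. Eno2 went from 5.29% to 23.1% of the enolase pair. This pair leaves out Eno3, an enolase gene of the wider list. With DMSO Eno3 had 20.2 CPM per kilobase in WT and 4.43 in KO, against 9.55 and 22.6 for Eno2. In the lactate dehydrogenase pair Ldhb held 19.1% in WT and 19.7% in KO, so both groups were close. These shares depend on the gene models used for length. By CPM alone Hk2 went from 46.7% to 29.9%, so that Hk1 led the pair in WT too, and Eno2 went from 4.66% to 20.8%. By CPM alone Pfkp went from 6.48% to 22.0%, Pfkl led the family in WT at 50.6% and Pfkm led it in KO at 45.1%, whereas per kilobase Pfkm led in both.

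**Figure D3:**
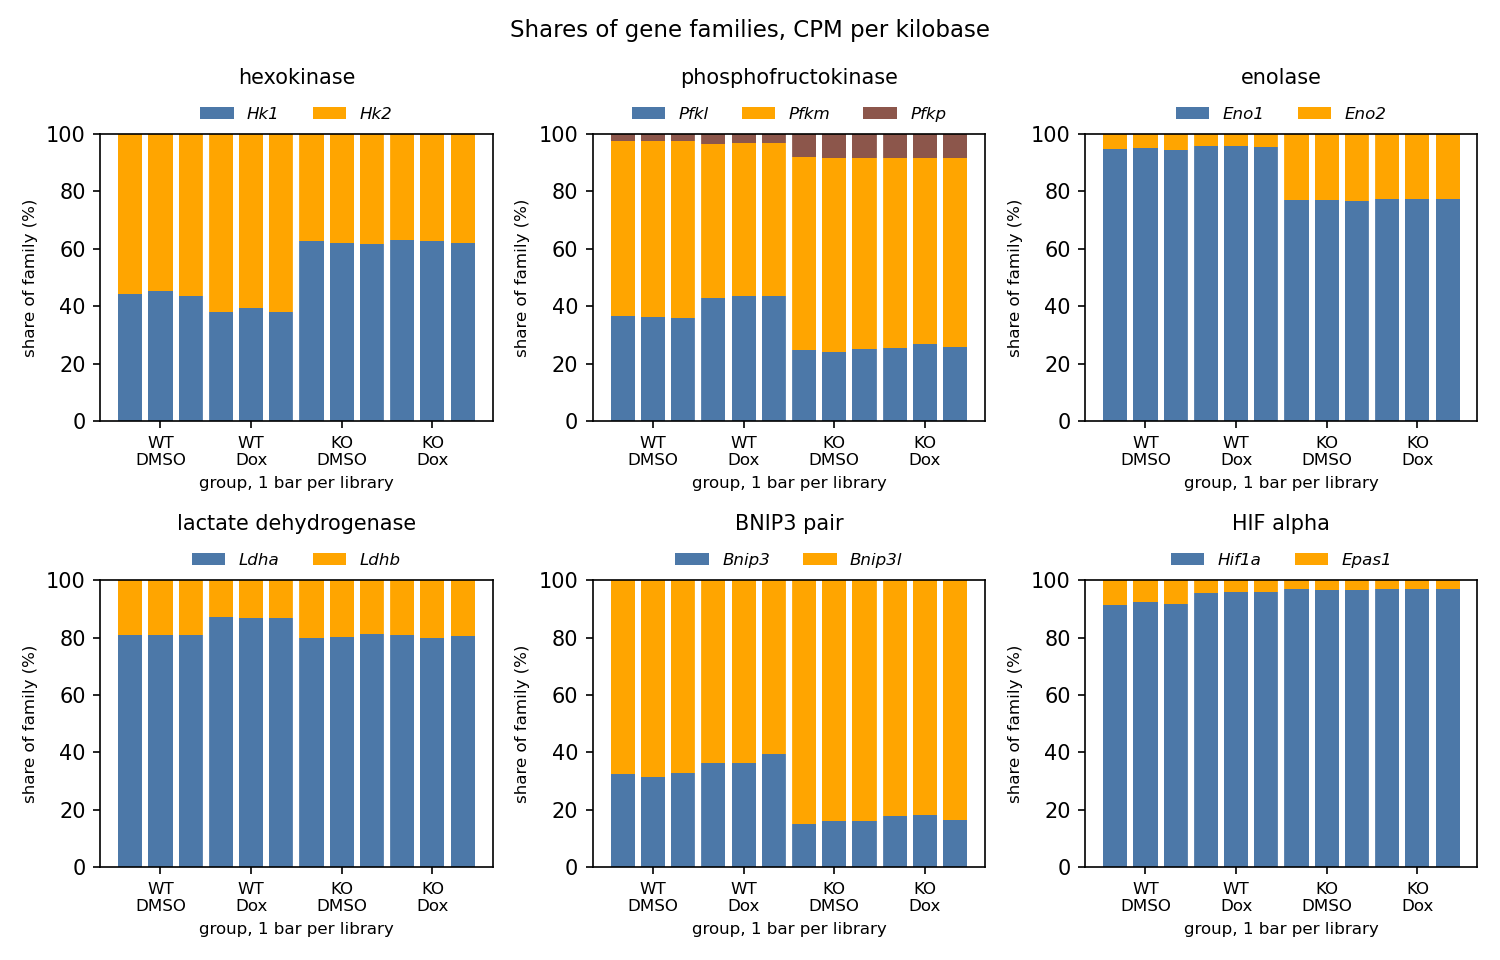
Share of each gene among the members of its family on the list, from CPM per kilobase of exon (y axis, percent). Each stacked bar is 1 library, with 3 libraries per group (x axis). Hexokinase, phosphofructokinase, enolase and the BNIP3 pair differ between WT and KO, and within WT doxycycline goes with less Ldhb, 19.1% against 13.0%.

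The HIF subunits were examined next. Hif1a, the alpha subunit behind most glycolytic HIF targets, had 211, 217 and 217 CPM in WT and 135, 136 and 138 CPM in KO. Its mRNA was lower in every KO library, by 0.66 on the log2 scale (SE 0.02, edgeR adjusted p = 1.8e-18). Epas1, which encodes HIF-2 alpha (chromosome 17, 86753700 to 86833410, plus strand), had 18.7, 17.1 and 18.9 CPM in WT and 4.17, 4.40 and 4.53 CPM in KO. The KO level was 4.17-fold lower (-2.06 ± 0.06, edgeR adjusted p = 4.2e-20). Per kilobase Hif1a was far above Epas1 in each group, and the Epas1 share of the pair was 8.21% in WT and 3.27% in KO. Arnt, the partner subunit, lay between 157 and 160 CPM in WT and 193 and 195 CPM in KO and rose by 0.29 on the log2 scale. Since alpha subunits are set by protein stability, these mRNA levels do not measure HIF protein.

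The genes of HIF degradation did not share a direction. Vhl, the substrate receptor of the ubiquitin ligase, had 38.2, 38.9 and 40.8 CPM in WT and 65.3, 66.8 and 69.6 CPM in KO. It was 1.71-fold higher in KO (log2 fold change 0.77 ± 0.03, edgeR adjusted p = 3.3e-17). Of the prolyl hydroxylases, Egln2 lay between 69.1 and 69.8 CPM in WT and 57.2 and 57.9 CPM in KO (-0.27), and the hypoxia-inducible Egln3 had 4.98, 4.59 and 4.40 CPM in WT and 3.46, 3.25 and 3.25 CPM in KO (-0.49). Both fell, while Egln1, the main oxygen sensor, overlapped between groups and did not pass, at -0.06.

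The 5 HIF targets outside glycolysis were split. Ndrg1, a stress- and hypoxia-inducible gene (chromosome 15, 66929318 to 66969640, minus strand), had 58.1, 55.4 and 56.1 CPM in WT and 8.80, 9.42 and 8.92 CPM in KO. This 6.26-fold lower level was the widest difference among the 32 members in this comparison (-2.65 ± 0.05, edgeR adjusted p = 4.6e-25). Bnip3 and Bnip3l both encode mitophagy receptors, yet they went opposite ways. Bnip3 had 24.9, 23.8 and 25.4 CPM in WT and 16.2, 17.9 and 17.6 CPM in KO (-0.52), while Bnip3l had 88.5, 87.9 and 88.3 CPM in WT and 155, 158 and 156 CPM in KO (0.83 ± 0.03, edgeR adjusted p = 6.9e-20). The Bnip3 share of the pair went from 32.3% to 15.8% per kilobase. P4ha1, a collagen prolyl 4-hydroxylase subunit, had 158, 155 and 163 CPM in WT and 192, 190 and 195 CPM in KO and rose by 0.28 on the log2 scale. Car9, the carbonic anhydrase used as a marker of hypoxia, lay between 1.43 and 1.54 CPM in WT and between 1.56 and 1.67 CPM in KO, a low level in both, and did not pass in any of the 5 comparisons (edgeR).

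**Figure D4:**
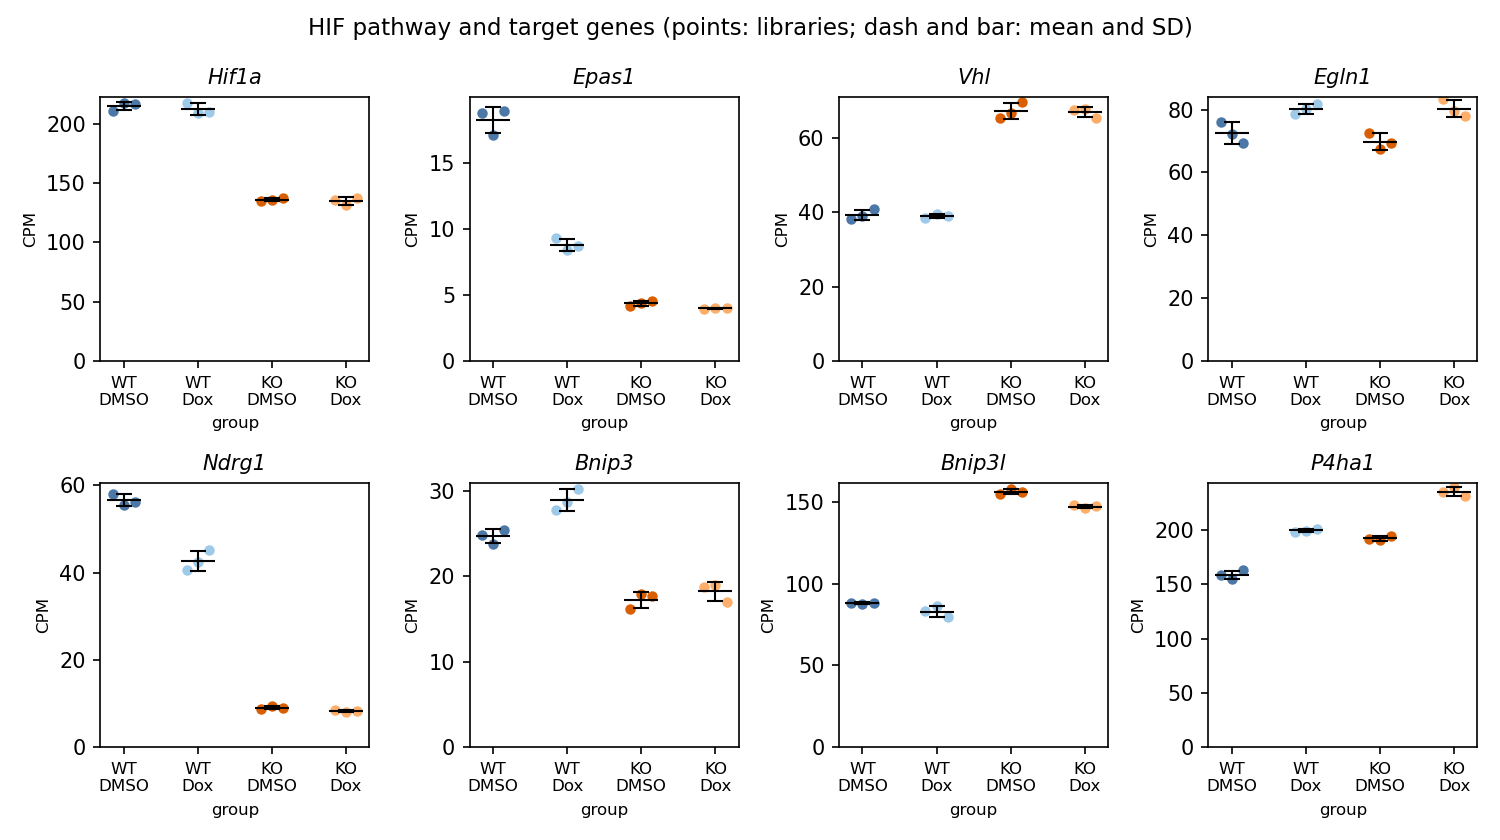
CPM (y axis, linear from 0) of 8 HIF pathway and target genes in each library of the 4 groups (x axis); points are libraries, dashes the group mean and bars the SD of 3 libraries. Ndrg1 and Epas1 are low in both KO groups, Vhl and Bnip3l high, and P4ha1 is higher with doxycycline in WT and in KO.

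Promoter sequence was set beside these directions, since HIF recruits CBP and p300 at cores of ACGTG or GCGTG. In the 250 bases before the most upstream RefSeq start (GRCm38.p6), searched on both strands, 22 of the 29 tested members with a window held either core (75.9%), against 57.8% of 9407 tested genes with a window. For ACGTG alone the shares were 55.2% and 21.9%, and for GCGTG alone 44.8% and 46.8%. Either core was held by 83.3% of the 18 that fell in KO with DMSO, by 63.6% of the other 11, and by 55.9% of all tested genes that fell. The members were chosen as HIF pathway genes, so nothing is read from these shares. The E-box CACGTG, bound by other factors, holds ACGTG on both strands and counts here too. No window was used for Epas1, Ndrg1 and Bnip3l. The windows of Hk2 and Pgk1 are shown as members that fell, P4ha1 as one that rose with doxycycline in both genotypes, and Eno2 as one that rose in KO; capitals mark each core, read on the gene's strand, where CACGT is ACGTG of the other strand.
Hk2, chr6:82774455-82774704, minus strand: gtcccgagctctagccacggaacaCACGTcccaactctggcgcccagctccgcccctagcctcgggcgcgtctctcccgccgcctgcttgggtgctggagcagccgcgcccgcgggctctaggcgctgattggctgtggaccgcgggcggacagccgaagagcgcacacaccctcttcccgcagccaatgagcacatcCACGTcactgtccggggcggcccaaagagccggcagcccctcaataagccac
Pgk1, chrX:106186850-106187099, plus strand: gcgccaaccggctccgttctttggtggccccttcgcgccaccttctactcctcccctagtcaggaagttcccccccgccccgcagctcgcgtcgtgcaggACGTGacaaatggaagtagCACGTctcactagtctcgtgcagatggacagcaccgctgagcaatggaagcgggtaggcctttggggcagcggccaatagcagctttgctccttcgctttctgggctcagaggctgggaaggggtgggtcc
P4ha1, chr10:59323046-59323295, plus strand: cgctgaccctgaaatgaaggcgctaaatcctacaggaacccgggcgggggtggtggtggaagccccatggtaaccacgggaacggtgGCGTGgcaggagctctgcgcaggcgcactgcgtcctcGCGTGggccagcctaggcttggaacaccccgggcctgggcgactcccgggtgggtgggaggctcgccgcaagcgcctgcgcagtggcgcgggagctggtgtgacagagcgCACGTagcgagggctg
Eno2, chr6:124769674-124769923, minus strand: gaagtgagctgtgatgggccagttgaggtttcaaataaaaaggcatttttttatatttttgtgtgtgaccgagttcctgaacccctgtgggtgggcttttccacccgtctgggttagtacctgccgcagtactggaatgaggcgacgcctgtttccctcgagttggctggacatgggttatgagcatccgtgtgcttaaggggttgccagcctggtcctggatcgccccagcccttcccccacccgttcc
Hk2 and Pgk1 each held 2 cores and P4ha1 held 3, while these letters do not occur in the Eno2 window. They do not occur in the window of Tpi1 either, which fell by 1.09 on the log2 scale. A match is a description of the letters and not a binding site.

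With doxycycline in both genotypes, KO against WT gave 20 members that fell, 9 that rose and 3 that did not pass, with 89.9% of all genes called (44.8% falling, 45.1% rising). The members' median was -0.24, beside 0.01 over all genes. The 7 members at least 2-fold lower and the 2 at least 2-fold higher with DMSO were at that size here too, and 5 of these 7 and both of these 2 without TMM. Hk2 had 142, 130 and 138 CPM in WT with Dox against 54.4, 53.3 and 56.1 CPM in KO with Dox (-1.32 ± 0.03, edgeR adjusted p = 2.1e-22). Pfkm had 109, 108 and 111 CPM against 131, 126 and 125 CPM, so with doxycycline it was higher in KO (0.22 ± 0.02, edgeR adjusted p = 5.5e-09). Hk1 also passed as higher (0.09) and Pfkfb3 as lower (-0.14), but Hk1 no longer passed without KO with Dox replicate 1 (0.05), and Pfkfb3 and Egln2 no longer passed without TMM (-0.01 each). Without TMM the split was 18 lower and 12 higher.

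Doxycycline in WT was followed by small changes of many members. Of 32, 18 rose, 7 fell and 7 did not pass, beside 53.1% of all genes called, 23.9% rising and 29.2% falling. The members' median log2 fold change was 0.08, beside -0.02 over all genes. At least a 2-fold change was called for 1 member, Epas1, and for 1.6% of all genes. With the term for the 4 libraries low in pseudogene reads, 12 of the 25 calls held, 8 rising and 4 falling, beside 22.6% of all genes called with it. Because all 3 WT libraries with DMSO belong to that set, this term is estimated from KO with DMSO replicate 1 against its 2 fellow libraries, and the set and the treatment cannot be told apart within WT.

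The 8 members that rose with and without that term were Slc2a1, Hk2, Pfkp, Aldoa, Eno1, Slc16a1, Egln1 and P4ha1. Hk2 went from 106, 106 and 108 CPM with DMSO to 142, 130 and 138 CPM with Dox, without overlap, a log2 fold change of 0.36 ± 0.03 (edgeR adjusted p = 4.1e-10) and 0.32 with the set term. Slc2a1 went from 127, 125 and 121 to 143, 145 and 147 CPM (0.23 ± 0.02, edgeR adjusted p = 1.8e-08, and 0.22 with the term). These 2 genes were higher in each Dox library than in each DMSO library, while Hk1 overlapped between the groups. Over all genes 57.5% did not overlap between these groups. Pfkp went from 20.9, 21.4 and 20.7 to 27.9, 27.0 and 27.3 CPM (0.38 ± 0.04, edgeR adjusted p = 6.1e-09). The lactate transporter gene Slc16a1 went from 103, 108 and 110 to 138, 134 and 137 CPM (0.35 ± 0.03, edgeR adjusted p = 5.1e-11). P4ha1 went from 158, 155 and 163 to 198, 199 and 201 CPM (0.33 ± 0.02, edgeR adjusted p = 1.7e-11). Aldoa rose by 0.22, Egln1 by 0.14 and Eno1 by 0.11 on the log2 scale, which came to 0.18, 0.23 and 0.15 with the term.

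The 4 members that fell with and without the term were Pfkm, Ldhb, Epas1 and Ndrg1. Ldhb went from 72.6, 72.7 and 72.5 CPM to 48.6, 51.4 and 51.5 CPM (-0.52 ± 0.03, edgeR adjusted p = 2.2e-12, and -0.53 with the term). Ldha, by contrast, went from 650, 651 and 643 to 697, 725 and 713 CPM, a log2 change of 0.14 that was 0.05 and no longer passed with the term. Pfkm fell by 0.34 on the log2 scale, with no Dox library above 111 CPM and no DMSO library below 138 CPM. Epas1 went from 18.7, 17.1 and 18.9 to 9.29, 8.38 and 8.69 CPM (-1.05 ± 0.05, edgeR adjusted p = 1.4e-13, and -1.15 with the term). Ndrg1 went from 58.1, 55.4 and 56.1 to 40.5, 42.3 and 45.1 CPM (-0.41 ± 0.04, edgeR adjusted p = 1.9e-09). Both genes, low in KO, were thus lower with Dox in WT as well, whereas Hif1a overlapped between the WT groups (-0.02). Most payoff enzymes changed by little: Gapdh, Pgk1 and Pkm rose by 0.11, 0.09 and 0.07 on the log2 scale and did not pass with the term.

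**Figure D5:**
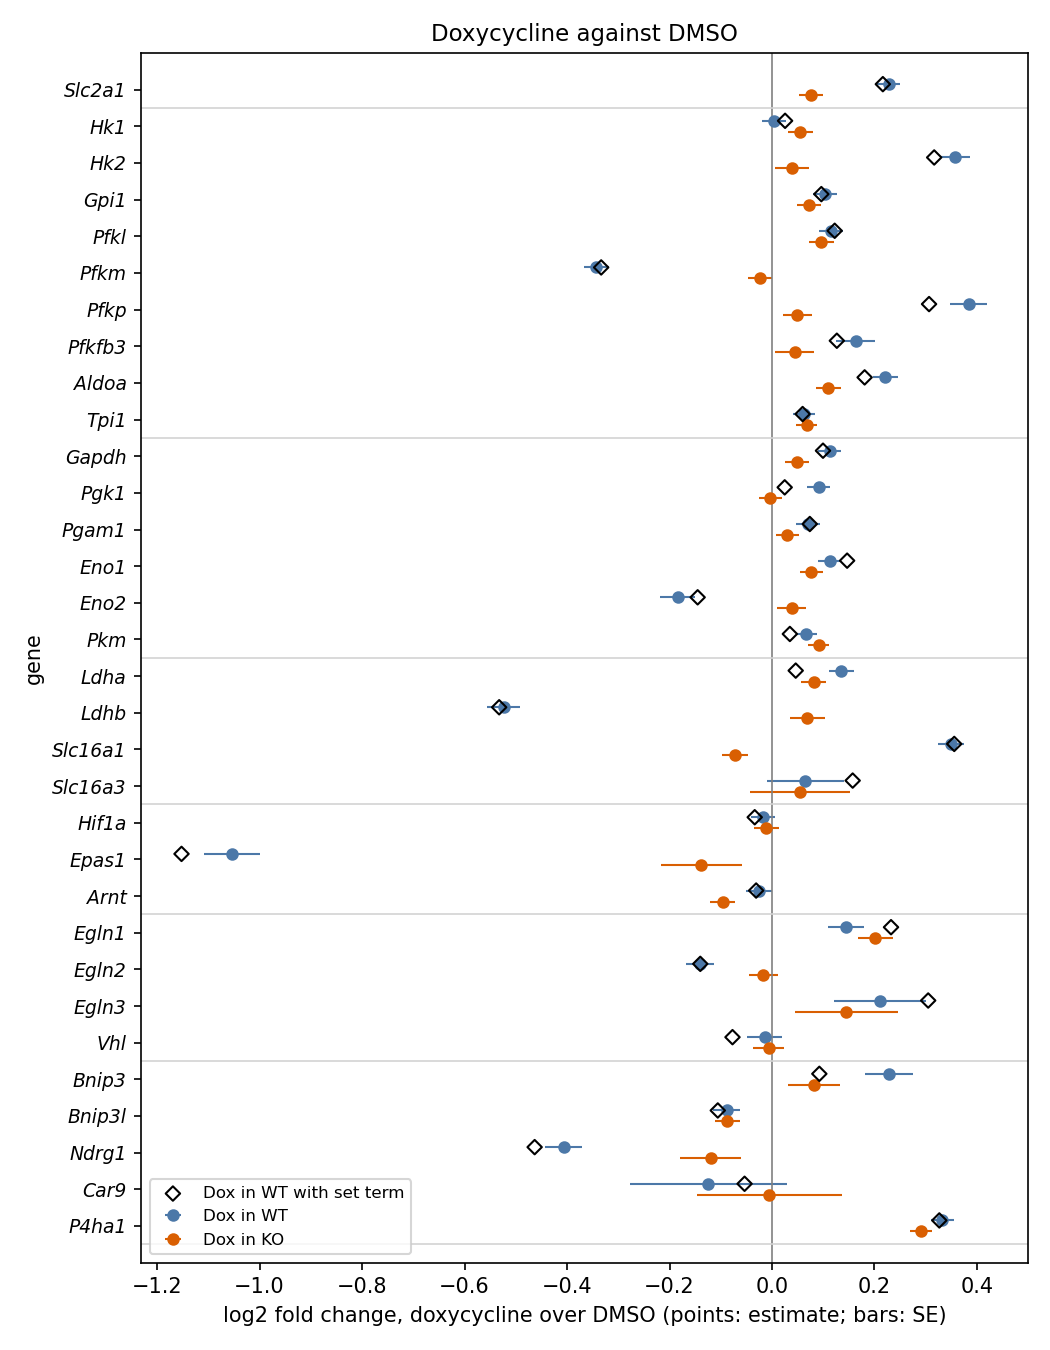
Log2 fold change with doxycycline over DMSO (x axis) for each member (y axis), in WT and in KO, with bars for the SE; diamonds give the WT change with the term for the 4 libraries low in pseudogene reads. Epas1 in WT lies farthest from 0, at -1.05, and P4ha1 is alike in WT and KO at 0.33 and 0.29.

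In KO, doxycycline was followed by 10 members that rose and 3 that fell, with 19 that did not pass, beside 21.7% of all genes called, 11.6% rising and 10.1% falling. The widest change was 0.29 for P4ha1, and 0.237% of all genes were called at 2-fold or more. The members' median was 0.05, beside -0.00 over all genes. P4ha1 went from 192, 190 and 195 CPM to 235, 239 and 232 CPM (0.29 ± 0.02, edgeR adjusted p = 6.5e-10). Egln1 went from 72.7, 67.4 and 69.2 to 83.4, 79.6 and 77.9 CPM (0.20, edgeR adjusted p = 1.8e-04). These 2 calls held in every alternative that was run, while the other 11 were lost in some. Pkm rose by 0.09, Eno1 by 0.08, Ldha by 0.08 and Tpi1 by 0.07 on the log2 scale. All KO Dox libraries lay above all KO DMSO libraries for each, and 38.3% of all genes did not overlap between these groups. For Ldha the margin was narrow, with a highest KO DMSO library of 370.5 CPM and a lowest KO Dox library of 371.7 CPM. With the set term 6 members rose and 2, Arnt and Bnip3l, fell, beside 17.4% of all genes called with it. The calls of Tpi1, Ldha, Slc2a1, Gpi1 and Slc16a1 were lost (edgeR adjusted p = 0.052, 0.14, 0.056, 0.062 and 0.10). KO with DMSO replicates 1 and 2 had 7.63% and 6.65% unmapped reads, and leaving out both kept replicate 3 alone in that group. Among the same 11, log2 changes then ran from 0.04 (Ldha) to 0.12 (Aldoa) for those rising. For those falling they ran from -0.10 (Arnt) to -0.06 (Slc16a1). Leaving out KO with DMSO replicate 3 or KO with Dox replicate 1 left 6 that rose, and leaving out replicate 2 of either KO group left 1 that fell. With these libraries left out in turn, 15 to 16.7% of all genes were called. Slc16a1 fell slightly here, by 0.07 on the log2 scale (edgeR adjusted p = 0.045), opposite to its rise in WT.

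The difference between both doxycycline responses was tested as an interaction. It passed in 12 of 32 members, 6 with a more positive and 6 with a more negative change in KO, beside 32.5% of all genes (18.2% and 14.3%). The members' median difference was -0.02, beside 0.01 over all genes. For Epas1 the change was -1.05 in WT and -0.14 in KO, a difference of 0.92 ± 0.10 (edgeR adjusted p = 1e-07), from levels that were already 4.17-fold lower in KO. For Ldhb it was -0.52 in WT and 0.07 in KO (difference 0.59 ± 0.05, edgeR adjusted p = 6.9e-10). For Hk2 it was 0.36 in WT and 0.04 in KO (difference -0.32 ± 0.04, edgeR adjusted p = 5.2e-06). Slc16a1, Pfkp, Slc2a1, Aldoa and Pgk1 likewise had a more negative change in KO, with differences of -0.42, -0.33, -0.15, -0.11 and -0.095. Pfkm (0.32), Ndrg1 (0.29), Eno2 (0.22) and Egln2 (0.12) had a more positive change in KO. For P4ha1 the difference was -0.04 ± 0.03 and did not pass (edgeR adjusted p = 0.34). With the set term 9 of the 12 held, the exceptions being Aldoa, Pgk1 and Egln2, beside 22.7% of all genes called with it.

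A wider list of 122 genes of glucose metabolism and HIF biology, without the members, had 93 genes in the table. In KO against WT with DMSO 48 fell and 41 rose, with 25 at least 2-fold lower and 10 at least 2-fold higher, and a median of -0.15. Over all genes 44.3% fell, 45.1% rose and 27.5% were called at 2-fold or more, so these counts are near the background and are given as a description. Secreted HIF targets were among the lowest: Adm (adrenomedullin) fell by 3.81 and Apln (apelin) by 6.07 on the log2 scale. Vegfa, the vascular growth factor, fell by 1.15, and Lox, a collagen cross-linking oxidase, by 3.97. Cited2, a CBP/p300-binding inhibitor of HIF, fell by 2.71, with a mean of 199 CPM in WT and 30.3 CPM in KO. In contrast Ero1l, an oxidase of the endoplasmic reticulum, rose by 1.70 and Kdm4c, a histone demethylase, by 1.73. Of 36 HIF targets outside the member list 20 fell, 14 rose and 2 did not pass.

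With doxycycline in WT, 28 of the 93 rose, 34 fell and 31 did not pass, with a median of -0.04, where 23.9% of all genes rose and 29.2% fell. Results for this list are given without the set term, with which 22.6% rather than 53.1% of all genes were called in WT. Pck2, the mitochondrial enzyme that makes phosphoenolpyruvate, rose by 0.89 in WT and by 0.20 in KO on the log2 scale, a difference of -0.69 (edgeR adjusted p = 2.6e-12). Ero1l rose by 0.83 in WT and fell by 0.11 in KO on the log2 scale. Vegfa rose in both, by 0.49 and 0.30, and Cited2 fell in both, by 0.53 and 0.65. With doxycycline in KO 19 rose, 13 fell and 61 did not pass, where 11.6% of all genes rose and 10.1% fell.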

How the data were processed

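The authors deposited read counts per gene, and STAR 2.6.0a, HTSeq 0.10.0 and build GRCm38.p6 are named, without roles, per the submitters' processing notes; strand of counting and filters were not given in the sources used here. Rows that name no gene stayed out of library sizes and tests (1.85 to 7.63% of reads were unmapped). The members, lists and tests were chosen with earlier results of these data known.

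Group means of the 12 libraries were fitted together in edgeR 4.0.16 under R 4.3.3, using TMM factors and robust quasi-likelihood F tests. Calls used a Benjamini-Hochberg adjusted p under 0.05 over 12637 genes. The SE is the log2 fold change divided by the square root of F. The shared biological coefficient of variation was 2.26%. The test was checked on simulated counts. All members could be named, and of the wider list those called at 2-fold or more in at least 1 comparison. Exon lengths and coordinates came from GENCODE on GRCm38. Alternatives were other scaling, filters, limma-voom (limma 3.58.1), DESeq2 1.42.0, protein-coding genes only, only the groups compared, a replicate block, the set term, and each library left out. Leaving out both KO libraries with DMSO and many unmapped reads was added after seeing the data. Same-numbered libraries did not deviate together (correlations -0.11 to 0.11), so they were not treated as pairs. No 2 replicates were identical.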

Additional observations from a re-analysis of the deposited data

Results flagged for a closer look

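These genes had a doxycycline effect that differed between KO and WT by the interaction term of edgeR, given as the log2 change in KO minus that in WT. Positive differences were 0.92 for Epas1, 0.59 for Ldhb, 0.32 for Pfkm, 0.29 for Ndrg1, 0.22 for Eno2 and 0.12 for Egln2. Negative differences among the members were -0.42 for Slc16a1, -0.33 for Pfkp, -0.32 for Hk2, -0.15 for Slc2a1, -0.11 for Aldoa and -0.095 for Pgk1. In the wider list 21 of 93 genes passed with a positive and 20 with a negative difference, while 52 did not pass. Over all genes 18.2% passed with a positive and 14.3% with a negative difference. The widest that passed in the wider list were -0.94 for Ero1l, -0.69 for Pck2 and -0.60 for Tfrc, the transferrin receptor. Results for the wider list are given without the set term. Epas1 had about 4 CPM in the KO libraries, so its change in KO has the wider error, and the calls for Aldoa, Pgk1 and Egln2 did not hold with the set term.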

How the results depend on the processing

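Over the log2 fold changes of the members, 3514 values under an alternative kept their side of the threshold without a called value turning sign, 87 lost the call and 40 gained one. Sign turned in 107, of which 100 were called in neither fit and had main values of at most 0.119 in size. The other 7 were called in 1 of the fits or both and arose without TMM. There KO against WT with DMSO gave 0.14 for Pgam1, 0.13 for Pfkfb3, 0.092 for Slc2a1, 0.091 for Egln1, 0.018 for Slc16a1 and 0.047 for Pfkm. KO against WT with doxycycline gave 0.087 for Pgam1. Without TMM the median over all genes moved by 0.15 with DMSO and 0.13 with doxycycline on the log2 scale. The number that rose in KO with DMSO was then 12. With the set term 8 members rose and 4 fell with doxycycline in WT, beside 22.6% of all genes called. In KO 6 rose and 2 fell, beside 17.4% of all genes. At 2-fold or more the counts were 0 rising and 1 falling for doxycycline in WT, 0 and 0 in KO and for the interaction, and 2 and 7 for each KO comparison, of which without TMM the 7 became 3 with DMSO (a count added after seeing the data). Leaving out 1 library gave 6 to 11 rising and 1 to 3 falling members for doxycycline in KO, beside 15 to 27.5% of all genes called. There were 6 rising without KO_DMSO replicate 3 or KO_Dox replicate 1, and 1 falling without KO_DMSO replicate 2 or KO_Dox replicate 2. Without KO_DMSO replicates 1 and 2 that group kept only replicate 3, so no counts are given. The cause of these differences between settings was not tested. The replicate block left the counts at 18 and 7 for doxycycline in WT, 10 and 3 in KO, 6 and 6 for the interaction, 7 and 20 for KO with DMSO and 9 and 20 with doxycycline, and 5 of 12 libraries correlated best with their own number. Car9, Epas1 in KO, Egln3 and Slc16a3 had under 8 CPM, which limits their precision.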
